A study of Mus musculus with 8 samples.

Results

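Voltage-gated calcium channels of nerve cells are built from a pore subunit and auxiliary subunits. The 7 genes described here encode 4 beta subunits (Cacnb1, Cacnb2, Cacnb3 and Cacnb4) and 3 alpha2delta subunits (Cacna2d1, Cacna2d2 and Cacna2d3). They were taken by name from a table of read counts for 31417 mouse genes, in which each symbol matched 1 row. All 7 passed the filter on low counts, which left 16228 genes for testing. The counts came from poly(A) RNA of mouse hippocampus, with 4 libraries from Dclk3 knockout (KO) mice and 4 from wild-type (WT) controls, all aged 12 months. Dclk3 encodes doublecortin-like kinase 3, and the comparison asks how its loss relates to hippocampal RNA levels. RNA of each library was taken from a single hippocampus. Which part of Dclk3 was removed, the cells in which it was removed, the strain, the sex and whether the 4 libraries of a genotype came from 4 animals are not stated in the labels. P-values therefore measure only the spread between these samples, and that spread may be technical.

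Beta subunits are cytoplasmic proteins that bind the intracellular loop joining the first repeats of a high-voltage-activated pore subunit. They bring the pore to the plasma membrane and set how readily it opens and inactivates. Alpha2delta subunits are glycosylated extracellular proteins, cut from 1 precursor into alpha2 and delta, which raise the number of channels at the surface and in presynaptic terminals. In the hippocampus both families serve the channels that trigger transmitter release and those that carry calcium into dendrites. Low-voltage-activated (T-type) pores work without them.

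Libraries held 29301974 to 36552757 counts. CPM measures a gene's counts scaled to the size of its library, and 1 count equalled 0.0274 to 0.0341 CPM on these raw totals. The CPM values given here use library sizes rescaled by TMM, so that 1 count differs slightly from this. Dclk3 averaged 26.7 ± 8.51 CPM over the WT libraries and 7.71 ± 1.42 CPM over the KO libraries (SD, n = 4), lower in each KO library than in any WT library (exact permutation p = 0.0286; edgeR adjusted p = 0.234; DESeq2 adjusted p = 5.25e-14). KO and WT were compared by edgeR's quasi-likelihood test over all tested genes with Benjamini-Hochberg adjustment, with 0.05 as the threshold on the adjusted p for a call. By this rule 0 of 16228 genes were called (0%), while 1000 had an unadjusted p under 0.05. DESeq2 called 5 of 15580 genes (0.0321%), Dclk3 among them and no calcium channel gene, and limma-voom called 0 (0%). WT replicate 2 stood apart: its chi-square per degree of freedom against the other WT libraries was 26.5 to 32.3, where those differed from each other by 8.85 to 15.4. The astrocyte gene Gfap, picked after its values were seen, was at 1805 CPM in that library and at 442 to 578 CPM in the other 7. Among the KO libraries replicates 1 and 4 differed most, at 40.9.

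The 7 genes lay on 6 chromosomes (mm10, GENCODE M21). Cacnb1 (ENSMUSG00000020882) lay at 11:98001508-98023034 on the minus strand, Cacnb2 (ENSMUSG00000057914) at 2:14603088-14987908 on the plus strand, Cacnb3 (ENSMUSG00000003352) at 15:98630840-98644529 on the plus strand and Cacnb4 (ENSMUSG00000017412) at 2:52428320-52676831 on the minus strand. Cacna2d1 (ENSMUSG00000040118) lay at 5:15934691-16374511 on the plus strand and Cacna2d3 (ENSMUSG00000021991) at 14:28904943-29721864 on the minus strand. Cacna2d2 (ENSMUSG00000010066), at 9:107399612-107529343 on the plus strand, was the 1 member on the chromosome of Dclk3, 3.91 Mb from it. The genes ranged in span from 13.7 kb for Cacnb3 to 817 kb for Cacna2d3. Their merged exons ranged from 4.01 kb for Cacnb3 to 13.2 kb for Cacnb2.

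Sequence before the transcription start was read for 12 RefSeq starts of the 7 genes (GRCm38.p6), 250 bases each. The windows held a median of 24.5 CpG, against 6 over all 32851 windows of the same length. They were not alike: 8 held 23 to 37 CpG, while Cacnb1 start 2, Cacnb2 start 2, Cacnb3 start 1 and Cacnb4 start 3 held 1, 3, 2 and 4. The GC box GGGCGG, or CCGCCC on the other strand, was present in 7 of 12 windows and in 32.7% of all windows. The cyclic AMP response element TGACGTCA, read alike on both strands, was in 0 of 12 windows and in 1.55% of all windows. The E-box CACGTG was in 0 of 12 and in 6.02% of all windows. The TATA box, TATAAA on either strand, was in 0 of 12 and in 12.4% of all windows. Shown are the window of Cacnb1, the member with the lowest p between genotypes, at its more upstream start, and those of Cacna2d1 and Cacna2d3, one of the 2 pairs with the highest rank correlation over the libraries. All 3 are from the CpG-rich windows. Letters run 5′ to 3′ on the strand of the gene, and capitals mark GC boxes on either strand. The windows are chr11:98022628-98022877 (minus strand), chr5:15934441-15934690 (plus strand) and chr14:29721865-29722114 (minus strand).
Cacnb1: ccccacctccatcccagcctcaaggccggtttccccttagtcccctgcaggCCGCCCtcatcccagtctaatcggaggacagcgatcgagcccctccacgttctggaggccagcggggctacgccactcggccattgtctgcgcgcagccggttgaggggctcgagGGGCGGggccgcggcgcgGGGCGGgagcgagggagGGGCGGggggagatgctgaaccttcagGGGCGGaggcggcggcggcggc
Cacna2d1: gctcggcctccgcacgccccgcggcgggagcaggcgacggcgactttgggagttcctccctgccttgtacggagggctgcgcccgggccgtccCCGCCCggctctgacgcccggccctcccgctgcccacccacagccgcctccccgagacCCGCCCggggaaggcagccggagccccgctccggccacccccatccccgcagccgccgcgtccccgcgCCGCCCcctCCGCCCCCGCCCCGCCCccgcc
Cacna2d3: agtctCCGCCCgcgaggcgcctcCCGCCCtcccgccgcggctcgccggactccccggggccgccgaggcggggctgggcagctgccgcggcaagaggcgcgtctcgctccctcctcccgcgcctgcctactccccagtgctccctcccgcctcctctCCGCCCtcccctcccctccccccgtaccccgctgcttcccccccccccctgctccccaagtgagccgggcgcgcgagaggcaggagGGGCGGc
These windows held 5, 6 and 4 GC boxes, overlapping matches counted, and their GC content was 73.2%, 82.4% and 80%. A match describes the letters of the window and is not evidence of binding. Of the Cacnb1 window 7 bases overlap an annotated exon, and the other windows shown hold 0 exon bases. Among the windows not shown, those of Cacnb2 start 1 and Cacna2d2 lie wholly in annotated exons, at 250 bases each. Cacnb4 starts 1 and 2, Cacnb2 start 2 and Cacnb3 start 2 hold 123, 89, 66 and 51 exon bases, and the rest hold 0. The figures over 12 windows therefore include transcribed sequence of the same genes.

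Levels of different genes were compared per length, as CPM divided by the merged exon length in kb. Cacnb3, a beta subunit widely used by presynaptic channels, had the highest level, 58.0 ± 3.29 CPM per kb over all libraries (SD, n = 8). Cacnb1, first known from the skeletal muscle channel, followed at 32.3 ± 3.0 CPM per kb, then Cacna2d1 at 23.2 ± 2.55, Cacnb4 at 19.6 ± 1.11, Cacna2d3 at 13.9 ± 2.13, Cacnb2 at 5.40 ± 0.520 and Cacna2d2 at 4.33 ± 0.786 CPM per kb. Neighbours in this order did not overlap over the 8 libraries, except in 2 places. Cacna2d1 and Cacnb4 overlapped in range, although Cacna2d1 was the higher in 8 of 8 libraries. Cacnb2 and Cacna2d2 overlapped too, with Cacnb2 the higher in 6 of 8 libraries.

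The ends of this order were the same under 3 measures of length, while its middle was not. Divided by coding length, Cacnb4 moved to the second place at 113 ± 6.39 CPM per kb and Cacnb1 to the fourth at 71.9 ± 6.69. The longest Cacnb4 transcript measured 8225 bases, of which 1557 were coding. Divided by the longest transcript, Cacna2d3 stood above Cacnb4, at 32.9 ± 5.03 against 21.4 ± 1.21 CPM per kb. Cacnb3 was first and Cacna2d2 last with each length. Transcripts actually present in these samples are not known from counts per gene.

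**Figure D1:**
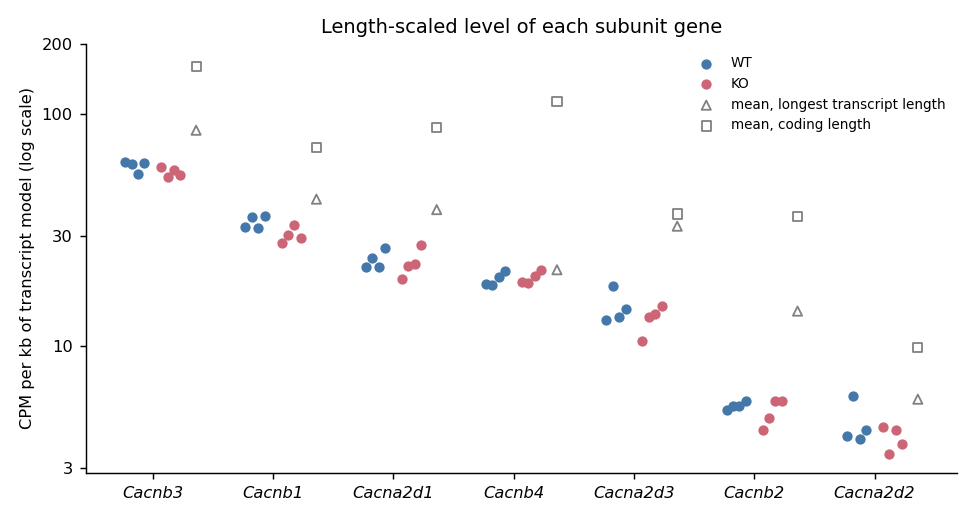
Level of each subunit gene in CPM per kb on a log scale, ordered by mean. Filled points are the 8 libraries with merged exon length (blue WT, red KO), and open symbols are means over 8 libraries with 2 other lengths. Cacnb3 stands at 53.5 to 61.9 CPM per kb, and Cacnb2 and Cacna2d2 lie lowest.

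Within the beta family Cacnb3 made up 50.2 ± 1.52% of the summed length-scaled level in WT and 50.5 ± 2.08% in KO. Cacnb1 contributed 28.8 ± 1.0% and 27.1 ± 1.46%, Cacnb4 16.3 ± 1.06% and 17.7 ± 0.928%, and Cacnb2 4.67 ± 0.159% and 4.69 ± 0.568% (n = 4 each). Within the alpha2delta family Cacna2d1 made up 55.0 ± 3.72% in WT and 57.0 ± 1.70% in KO, Cacna2d3 34.2 ± 2.41% and 32.8 ± 1.77%, and Cacna2d2 10.7 ± 1.33% and 10.2 ± 2.11%. The values of the genotypes overlapped for every member, and Cacnb4 came nearest to separating, at 15.3 to 17.6% in WT and 17.1 to 19.1% in KO. Divided by coding length, the share of Cacnb3 over all libraries was 42.0% and that of Cacna2d1 65.0%, and both genes still led their family. The other shares also depended on the length used. With coding length Cacnb4 was at 29.6%, above Cacnb1 at 18.8%, and Cacnb2 was at 9.51%. Cacna2d3 was at 27.6% with coding length and at 42.3% with the longest transcript. The summed beta level was 119 ± 4.96 CPM per kb in WT and 111 ± 3.86 in KO, and the alpha2delta sum 43.0 ± 4.46 and 40.0 ± 4.73.

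Set against the high-voltage-activated pore subunits, with which they assemble, the beta genes were the more abundant family. The beta sum was 1.71 to 2.39 times the summed level of the 7 high-voltage pore genes over the 8 libraries, and the alpha2delta sum 0.699 to 0.908 times it. With coding length the alpha2delta ratio was 0.921 to 1.19, so that whether alpha2delta RNA was below the pore RNA depended on the length used. RNA ratios do not give the ratio of proteins in a channel.

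Of the 7 genes, 6 had a lower and 1 a higher fitted level in KO, where 49.9% of all tested genes were lower. Their median log2 fold change was -0.09, beside 0.0003 for all genes, and it was -0.051 without WT replicate 2. None was called, in a table where 0% were called. At an unadjusted p under 0.05 there was 1 member, Cacnb1, which was lower in KO. Of all genes 6.16% passed that mark, 2.2% lower and 3.96% higher in KO. The genotypes overlapped in all 7 members, whereas they did not overlap in 3.8% of all tested genes, 1.92% lower and 1.88% higher in KO. With 4 against 4 libraries the smallest exact permutation p is 0.0286. A lower count in bulk tissue cannot tell fewer cells of a type from less RNA per cell.

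**Figure D2:**
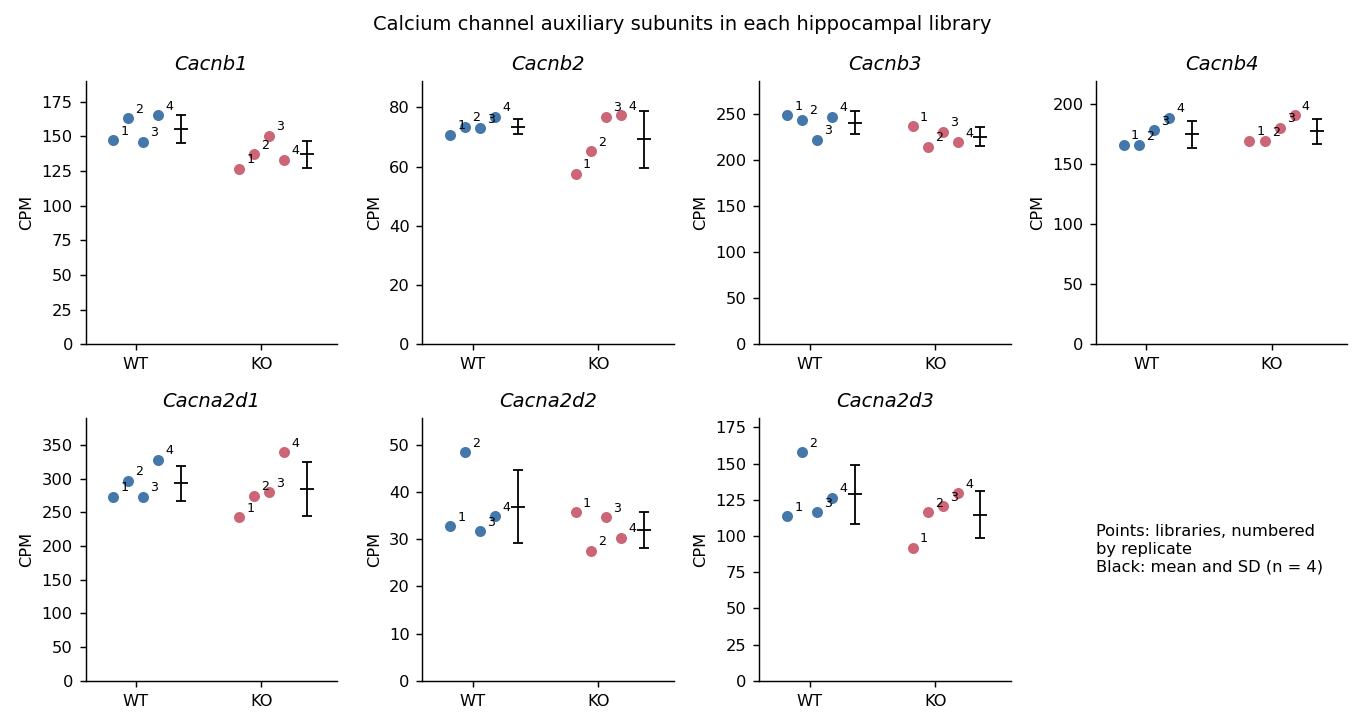
CPM of each subunit gene in the 8 libraries (y axes start at 0), numbered by replicate, with mean and SD of each genotype in black. Values of the genotypes overlap in each of the 7 panels, and Cacna2d2 and Cacna2d3 are highest in WT replicate 2.

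Cacnb1 stood at 147, 163, 146 and 165 CPM in WT replicates 1 to 4 and at 127, 137, 150.5 and 133 CPM in KO replicates 1 to 4. The KO replicates 1, 2 and 4 lay below the lowest WT library, and KO replicate 3 lay inside the WT range. The WT mean was 155 ± 10.1 CPM and the KO mean 137 ± 10.1 CPM. The fitted log2 fold change was -0.18 (SE 0.070, 95% interval -0.34 to -0.027), a level 11.9% below WT (95% interval of the ratio to WT, 0.791 to 0.981). The unadjusted p was 0.0255, edgeR's adjusted p 0.796 and the exact two-sided permutation p 0.0857. DESeq2 gave -0.19 with an adjusted p of 0.708. With each library left out in turn the log2 fold change was -0.23 to -0.14 and the unadjusted edgeR p 0.00886 to 0.0764, while the adjusted p stayed at 0.460 to 0.997. Without WT replicate 2 the fold change on that scale was -0.16, with an unadjusted edgeR p of 0.0598.

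Cacnb3 had 248, 244, 222 and 247 CPM in WT replicates 1 to 4 and 237, 214, 231 and 219 CPM in KO replicates 1 to 4. WT replicate 3 lay among the KO libraries, and KO replicates 2 and 4 lay below it. The log2 fold change was -0.09 (SE 0.061, 95% interval -0.23 to 0.042; edgeR adjusted p = 0.803). Cacnb3 and Cacnb4 had the smallest spread over the 8 libraries of the 7 genes, with coefficients of variation of 5.68% and 5.66%, beside a median of 10.7% over all tested genes. That median is not matched for level, since the tested genes include some with far lower counts.

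Cacnb4, the gene disrupted in the ataxic and epileptic lethargic mouse, was at 166, 165, 178 and 189 CPM over WT replicates 1 to 4, and KO replicates 1 to 4 were at 169, 169, 180.0 and 190.4 CPM. The groups lay on top of each other, with a log2 fold change of 0.02 (SE 0.065, 95% interval -0.12 to 0.17; edgeR adjusted p = 0.961). On the linear scale that interval ran from 0.918 to 1.12 times the WT level. The noncoding gene A430018G15Rik shares 16.0% of the Cacnb4 exon bases on the opposite strand. It had 30 to 53 counts per library, against 5105 to 6216 for Cacnb4.

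Cacnb2, the main beta subunit of the heart, gave 70.8, 73.4, 73.1 and 76.8 CPM over WT replicates 1 to 4. The KO replicates gave 57.6, 65.2, 76.8 and 77.3 CPM in that order. The WT libraries were close together, at a coefficient of variation of 3.40%, while the KO libraries spread to 13.8%, with KO replicates 1 and 2 below the WT range and KO replicate 4 just above it. The fitted difference on the log2 scale was -0.09 (SE 0.091, 95% interval -0.29 to 0.11; edgeR adjusted p = 0.872), and without KO replicate 1 it was -0.0042.

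Cacna2d1, whose product binds gabapentin and is a receptor for thrombospondins, was at 273, 297, 273 and 328 CPM over WT replicates 1 to 4, and KO replicates 1 to 4 were at 243, 274, 279.8 and 339 CPM. Both the lowest and the highest library were KO, replicates 1 and 4. WT and KO means of 293 ± 25.97 and 284 ± 40.2 CPM gave a log2 fold change of -0.04 (SE 0.10, 95% interval -0.27 to 0.18; edgeR adjusted p = 0.950). Its sign was not stable: without KO replicate 1 the value was 0.029, and without WT replicate 4 it was 0.015.

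Cacna2d2, the second gabapentin-binding subunit and the gene mutated in the ducky mouse, gave 32.7, 48.4, 31.6 and 34.8 CPM over WT replicates 1 to 4, against 35.7, 27.5, 34.6 and 30.3 CPM over KO replicates 1 to 4. WT replicate 2 stood above the other libraries, and KO replicates 2 and 4 lay below the WT range. The log2 fold change was -0.20 (SE 0.14, 95% interval -0.52 to 0.11; edgeR adjusted p = 0.814), the largest in size of the 7 and the least precise. Without WT replicate 2, the library set apart by its Gfap level, it was -0.043, and the part of that library's other differences in this value was not tested.

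Cacna2d3, a subunit of auditory and pain pathways, was at 114, 158, 116 and 126 CPM over WT replicates 1 to 4. KO replicates 1 to 4 were at 91.8, 116, 121 and 129.7 CPM. WT replicate 2 was again the highest and KO replicate 1 the lowest library, and the other 6 lay between 114 and 129.7 CPM. The log2 fold change was -0.17 (SE 0.13, 95% interval -0.45 to 0.12; edgeR adjusted p = 0.824). Leaving out WT replicate 2 gave -0.051, and leaving out KO replicate 1 gave -0.070.

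**Figure D3:**
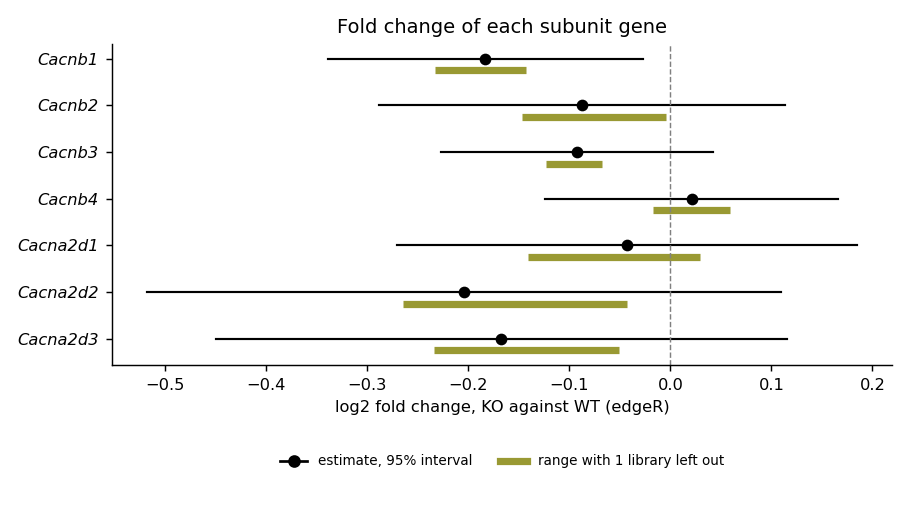
Log2 fold change of each subunit gene, KO against WT, as the edgeR estimate with its 95% interval (black), and the range of the estimate with 1 library left out (olive). The interval of Cacnb1 lies below 0 before adjustment over genes, and the leave-one-out ranges of Cacnb4 and Cacna2d1 cross 0.

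Several members also varied among libraries of 1 genotype in a shared way. KO replicate 1 was the lowest library for 4 of the 7 genes (Cacnb1, Cacnb2, Cacna2d1 and Cacna2d3) and KO replicate 4 the highest for 3 (Cacnb2, Cacnb4 and Cacna2d1). Relative to the mean of the 8 libraries on the log2 scale, Cacnb2 lay at -0.30 in KO replicate 1 and 0.12 in KO replicate 4, and Cacna2d1 at -0.24 and 0.24. Long transcripts in general showed the same 2 libraries at the ends. Over the 3239 tested genes with merged exons of 7.37 to 123 kb, the median was -0.069 in KO replicate 1 and 0.076 in KO replicate 4. Over the 3240 genes of at most 2.295 kb it was 0.0995 and -0.060. Cacnb2, Cacna2d1, Cacnb4, Cacna2d3 and Cacna2d2 belong to the long group. Cacna2d2 did not follow its group, at 0.07 in KO replicate 1 and -0.17 in KO replicate 4. Cacnb1 and Cacnb3, at 4.53 and 4.01 kb, belong to the middle group, whose medians differed by 0.024 at most. Fitted with offsets that centre each length group in each library, an alternative chosen after seeing the data, the log2 fold change was -0.18 for Cacnb1, -0.07 for Cacnb2, -0.09 for Cacnb3 and 0.04 for Cacnb4. It was -0.03 for Cacna2d1, -0.18 for Cacna2d2 and -0.15 for Cacna2d3, so that 6 of 7 lay below 0.

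**Figure D4:**
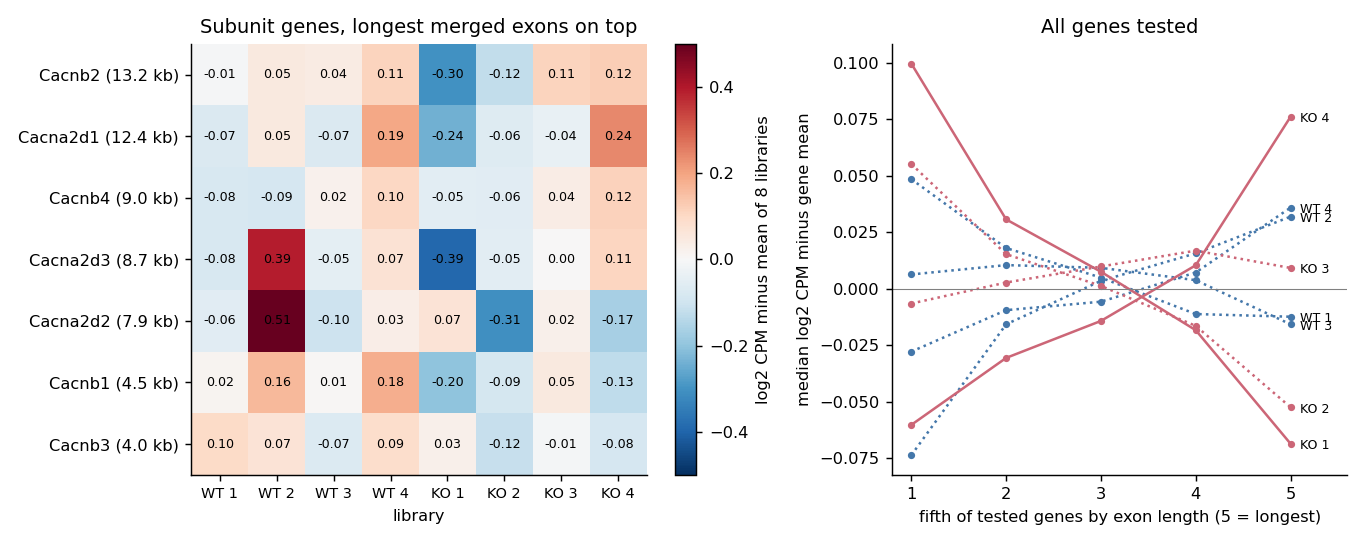
Left, log2 CPM of each subunit gene minus its mean over 8 libraries, by library, with genes ordered by merged exon length in kb. Right, the median of the same quantity over all tested genes in 5 groups of exon length, 1 line per library. KO replicates 1 and 4 (solid lines) lie at opposite ends for the longest genes, at -0.069 and 0.076, as they do for Cacnb2 and Cacna2d1.

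Among the 21 pairs of members, 18 had a Pearson r above 0 over the 8 libraries, on log2 CPM. Centred within genotype 14 of 21 pairs were above 0, and centred on the length groups 15 of 21. The libraries are shared by all pairs, and so is the length pattern. Cacnb2 and Cacna2d1 gave r = 0.79 (exact permutation p = 0.0199, adjusted over the pairs 0.1996) and Spearman's rho = 0.90 (exact permutation p = 0.00456, adjusted 0.0479). Without KO replicates 1 and 2, the 2 libraries farthest from the median of Cacnb2, r was 0.71. Centred within genotype it was 0.80, and centred on the length groups 0.61. Cacna2d1 and Cacna2d3 had rho = 0.90 with r = 0.69 (exact permutation p = 0.0541, adjusted 0.1996), and r = 0.96 without WT replicate 4 and KO replicate 4. Within genotype its r was 0.69, and centred on the length groups 0.53. Cacnb4 and Cacna2d1 gave r = 0.72 (exact permutation p = 0.0498, adjusted 0.1996), and 0.28 when centred on the length groups. Without WT replicate 4 and KO replicate 4, the 2 libraries farthest from the median of Cacnb4, r was -0.02. Leaving out the farthest libraries narrows the range of values and tends to lower r, so this cannot show what the relation rested on. No pair passed an adjusted p of 0.05 by r, and 2 pairs did by rho.

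Genes whose levels most resembled a member over the 8 libraries were ranked by Pearson r of log2 CPM among 9629 protein-coding genes of at least 10 CPM. No member was among the 3 nearest genes of another. Cacnb1 was nearest to Mblac2 (r = 0.99), Clptm1 (0.99) and Rnft2 (0.98). Cacnb2 was nearest to Osbpl6 (0.99), the gephyrin gene Gphn (0.99) and Papolg (0.98), and Cacna2d1 to Tanc2 (0.99), Pcdh9 (0.99) and Akap11 (0.985). Cacnb4 was nearest to Fgf14 (0.98), which encodes a modulator of sodium channels, Kdm3b (0.95) and Abca5 (0.94). Cacnb3 lay near Atxn7l3 (0.97) and Cant1 (0.96), Cacna2d2 to Kcnip3 (0.96), Tdp1 (0.95) and Ssbp3 (0.95), and Cacna2d3 to Por (0.99), Herc3 (0.99) and Iars (0.99). The number of genes with r above 0.9 was 381 for Cacna2d3 and 282 for Cacnb2, but 13 for Cacnb4 and 15 for Cacnb3. These genes were picked as the highest of 9629 over 8 libraries, and values of this size can arise among unrelated genes. The outlying libraries and the length pattern are shared by all genes, and no relation was tested.

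The other genes of the channel and its partners were described from 6 lists holding 51 genes, of which 49 were tested. None was called (0% of all genes), and their median log2 fold change was -0.04, beside 0.0003 for all tested genes. Fitted values lay below 0 for 33 and above 0 for 16, where 49.9% of all tested genes lay below 0. Lower and higher refer here to that sign, not to a call. All these genes share the same libraries, so their signs are not independent. Of the 6 tested high-voltage pore genes 4 were lower, as were 3 of 3 T-type pore genes. Cacna1b, the N-type pore, averaged 148 ± 11.3 CPM over WT and 132 ± 15.4 CPM over KO libraries (log2 fold change -0.16, edgeR adjusted p = 0.796), and Cacna1d, an L-type pore, 49.0 ± 3.04 and 51.3 ± 4.82 CPM. Cacna1g, a T-type pore, stood at 117 CPM in WT replicate 2 and at 48.1 to 65.8 CPM elsewhere, the same library in which Cacna2d2 and Cacna2d3 were highest. Cacna1i had 86.4 ± 12.8 and 80.6 ± 2.83 CPM.

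Of the 8 tested genes among the gamma family and Cacna2d4, 5 were lower. Most gamma proteins of the brain are AMPA receptor partners. Cacng6 and Cacng5 were among the gamma family genes of lower CPM. Cacng6 averaged 1.61 ± 0.425 CPM over WT and 1.4 ± 0.223 over KO libraries, and Cacng5 13.0 ± 0.942 and 12.2 ± 1.99 CPM. Cacna2d4, the remaining alpha2delta gene, known from the retina, had 1.59 ± 0.509 and 1.48 ± 0.369 CPM.

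Of the 11 genes listed as beta subunit partners, 8 were lower. These 8 include Gem, with a log2 fold change of -0.0017. They also include Rimbp2, which was at 219 CPM in WT replicate 2 and at 145 to 162 CPM elsewhere. The list includes Rimbp2 and Rimbp3, and binding to beta subunits was not tested for any listed gene. Cbarp, whose product binds beta subunits and restrains channel activity, was at 252, 256, 237 and 256 CPM over WT replicates 1 to 4, and KO replicates 1 to 4 were at 229, 229, 225 and 194 CPM. Its genotypes did not overlap, with a log2 fold change of -0.19 (SE 0.067; unadjusted p = 0.0167, edgeR adjusted p = 0.796; exact permutation p = 0.0286, the smallest possible). Rrad, a small GTPase that inhibits channels through the beta subunit, had 1.06 ± 0.304 and 0.753 ± 0.249 CPM. Among partners of alpha2delta subunits 5 of 9 were lower. Prnp, the prion protein gene, whose product has been reported to bind alpha2delta, had 1296 ± 48.9 and 1184 ± 37.8 CPM, also without overlap (edgeR adjusted p = 0.796). Of all tested genes, 3.8% were without overlap, 1.92% lower and 1.88% higher in KO. Thbs3, a thrombospondin, had 8.94 ± 2.19 and 11.7 ± 3.70 CPM. Calcium sensors and anchors had 8 of 12 lower, with Stac3 at 0.295 ± 0.128 and 0.523 ± 0.256 CPM and Stac at 3.88 ± 0.459 and 3.21 ± 0.763 CPM.

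**Figure D5:**
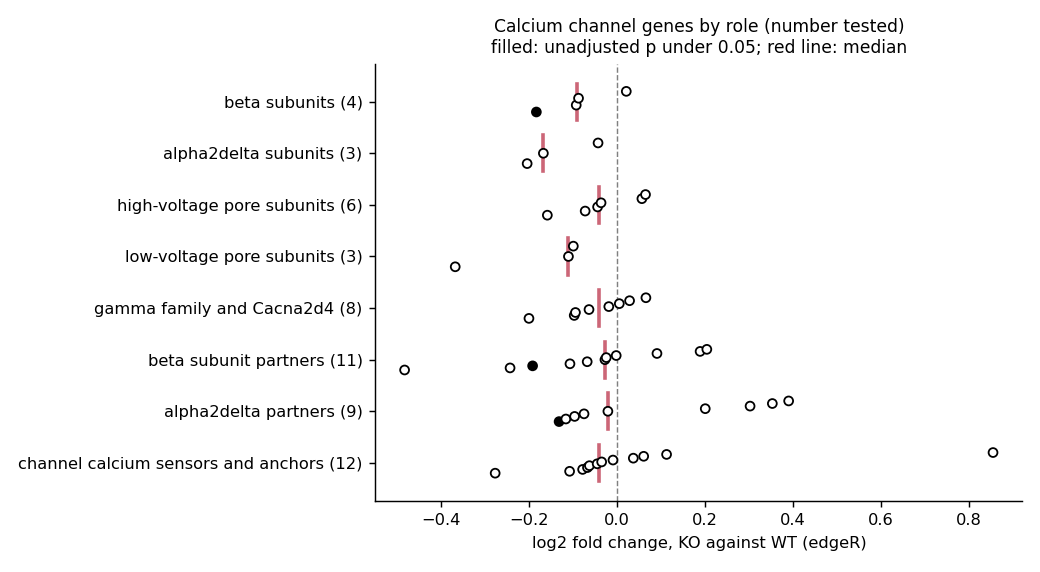
Log2 fold change, KO against WT, of the tested genes of each group, 1 circle per gene, with the group's median as a red line. Filled circles (Cacnb1, Cbarp and Prnp) had an unadjusted p under 0.05, and none passed after adjustment over all genes.

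Markers of the cell types of the hippocampus were summed beside these values. Markers of dentate granule cells summed to 601 to 725 CPM in WT and 732 to 834 CPM in KO, without overlap and with 9 of 10 higher in KO. Those of CA1 pyramidal cells summed to 817 to 983 and 752 to 918 CPM, with 7 of 7 lower, those of CA2 and CA3 to 748 to 842 and 722 to 757 CPM, with 8 of 9 lower, and those of GABA neurons to 1699 to 1884 and 1658 to 1719 CPM, with 10 of 14 lower. Oligodendrocyte markers summed to 3587 to 5124 CPM for WT and 4384 to 4920 CPM for KO, with 8 of 8 higher, and microglial markers to 583 to 674 and 623 to 717 CPM, also with 8 of 8 higher. Astrocyte markers summed to 7431 to 8920 and 7505 to 8891 CPM (6 of 8 higher), oligodendrocyte precursor markers to 273 to 322 and 255 to 303 CPM (1 of 6 higher), and endothelial and mural markers to 463 to 550.3 and 466 to 667 CPM (8 of 10 higher). For tissue next to the hippocampus, cortical markers summed to 150.4 to 181 and 175 to 211 CPM (6 of 8 higher). Thalamic and habenular markers summed to 99.0 to 123 and 93.3 to 138 CPM (6 of 8 higher), and striatal markers to 167 to 199 and 168 to 183 CPM (3 of 8 higher). At an unadjusted edgeR p under 0.05, 3 dentate granule, 2 cortical, 1 oligodendrocyte and 1 GABA neuron marker were higher in KO. At that mark 1 CA2 and CA3, 1 GABA neuron and 1 oligodendrocyte precursor marker were lower. Of all tested genes 3.96% were higher and 2.2% lower at that mark. None of the 113 marker genes tested was called and none was at 0, and their part in the values of the subunit genes was not tested. Markers of a list share the same libraries, so their signs are not independent. Of all tested genes 49.9% had a log2 fold change below 0. Markers of the choroid plexus, a neighbouring tissue, summed to 3501 CPM in WT replicate 2, 4759 CPM in KO replicate 2 and 248 to 1779 CPM elsewhere. Cacna2d2 was highest in the first of these libraries and lowest in the second.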

How the data were processed

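Total RNA from single hippocampi was made into libraries with a stranded poly(A) kit, per the labels' protocols. The deposited table holds raw read counts per gene, unnormalised, and the authors' processing notes name bcl2fastq 2.17.1.14 and mm10. The aligner, annotation and strand setting of the counting were not named in the sources used here, so reads from overlapping antisense genes may be included. Symbols, coordinates and exon lengths came from GENCODE M21, and 31292 of 31417 gene IDs had a symbol.

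Genes were filtered with filterByExpr and scaled by TMM, and the genotypes were compared by edgeR 4.0.16 (quasi-likelihood, robust, R 4.3.3) over all 16228 genes with Benjamini-Hochberg adjustment. DESeq2 1.42.0 and limma 3.58.1 (voom with quality weights) were alternatives, beside other scalings, other filters, a replicate block and leaving out each library. CPM used TMM-scaled library sizes, and a prior count of 2 was used for log2 CPM. Single genes were also compared by exact two-sided permutation over 70 splits. Intervals are at 95%. The edgeR procedure was tested on simulated data. No 2 libraries were identical.

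The genes and lists were chosen with earlier results of these data known. Values were given for all 7 subunit genes, for the 2 genes of lowest p in each list of channel genes, for Cacna2d4 (chosen after its values were seen), and for the 3 genes most like each subunit gene, of which 1 is not reported here.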

Additional observations from a re-analysis of the deposited data

How the results depend on the processing

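None of the 7 subunit genes was called under any setting tried. The count over all genes was 0 with edgeR, 5 with DESeq2, 1 (Dclk3) with the replicate block, and 0 to 1 with 1 library left out: 1520401A03Rik without WT replicate 1, Dclk3 without WT replicate 2, Col6a4 without WT replicate 3 and C78859 without KO replicate 4. The cause was not tested. Same-numbered libraries did not deviate together (r = 0.14, 0.12, -0.22 and -0.01), so the numbers were not taken as pairs, and not every library correlated best with its own number.

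The log2 fold change of Cacna2d1 ranged from -0.14 to 0.029 with 1 library left out and was above 0 without KO replicate 1 (0.029) or WT replicate 4 (0.015). That of Cacnb4 ranged from -0.017 to 0.059 and was below 0 with limma-voom (-0.014) and without KO replicate 4 (-0.017), WT replicate 1 (-0.0028) or WT replicate 2 (-0.0012). The other 5 kept their sign in 17 of 17 settings, and 5 to 7 members lay below 0 with 1 library left out, with a median of -0.15 to -0.051. The share of Cacnb3 in the beta sum was 42.0% with coding length. Spread between libraries limited precision: the SE of the 7 log2 fold changes was 0.061 to 0.14.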
